A study of Mus musculus with 2 samples.

Results

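The heat shock and DNAJ chaperone genes of the mouse were examined in cerebrum RNA of the laggard mutant. They were taken as every gene that the annotation of the Affymetrix mouse genome array pairs alone with a probe set and whose symbol begins with Hspa to Hsph and a digit, with Hsp90, or with Dnaja, Dnajb or Dnajc and a digit. This rule found 71 genes of 18194 on the array, 27 named Hsp and 44 named Dnaj, read by 171 probe sets. It uses names only, so that it also takes Hspg2, which encodes the basement membrane proteoglycan perlecan, and Hspb11, an intraflagellar transport protein of cilia. Neither is a chaperone. Both form a class apart but are counted among the members. Hsp90ab1 was not analysed here. Dnajc19 shares its probe sets with a pseudogene and is no member; the brightest of them gave 1340 and 1339.

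The samples were 1 wild-type and 1 mutant cerebrum at postnatal day 14, with 1 array each. The mutant carries lag, a recessive spontaneous mutation of a splice acceptor site in Kif14, a kinesin gene, which arose on a mixed B6/D2/129 background and was crossed to C57BL/6J. The wild-type sample came from a littermate, and neither sample is labelled with a treatment. How many mice gave each RNA is not stated. With 1 sample per genotype the spread between mice is unknown, no test was possible, and folds describe these arrays.

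Heat shock proteins keep other proteins from clumping and help them to fold. Hsp70 proteins bind exposed stretches of a client in cycles of ATP hydrolysis. DNAJ proteins, also called Hsp40 or J-domain proteins, bring clients to Hsp70 and start its hydrolysis, and nucleotide exchange factors such as the Hsp110 proteins end the cycle. Hsp90 acts later on kinases and steroid receptors, small heat shock proteins hold unfolded clients, and the chaperonin of Hspd1 and Hspe1 folds proteins inside mitochondria. Part of the genes are inducible: heat shock factor 1 switches on the cytosolic set when unfolded protein accumulates, and the unfolded protein response does so for the set of the endoplasmic reticulum (ER). The others are constitutive, and brain depends on several of them at rest, such as Hspa8 and Dnajc5 at the synapse.

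Promoter sequences were searched for the elements known from inducible chaperone genes. The heat shock element is a row of alternating GAA and TTC units with 2 bases of any kind between them. A pair of units, GAANNTTC or TTCNNGAA, both of which read the same on either strand, lay in the 250 bases before a start site of 6 of the 8 heat-inducible members with a promoter sequence, and in 14.6% of 27018 genes of the mouse. Outside the inducible classes it was found in 2 of 6 mitochondrial members, 2 of 12 constitutive cytosolic members, 2 of 10 members typical of testis or muscle and 1 of 3 members in no class. A row of 3 units contains such pairs. It was found in 0.514% of genes and, among the 58 members with a promoter, in 3, namely Hspd1, Hspe1 and Dnajb6, and in 0 of the 8 heat-inducible members. The ER stress element, CCAAT followed after 9 bases by CCACG, searched on both strands as CGTGG and ATTGG too, was found in 0.130% of genes and in 3 of 6 ER stress-inducible members, Hspa5, Hsp90b1 and Dnajc3. Promoters of 5 members are shown 5′ to 3′ on the strand of the gene, since they carry the elements searched for; the classes themselves were set from the known roles of the genes and not from these elements. Capitals mark pairs of units in Hspa1a and Hspb1, rows of 3 units in Hspe1 and ER stress elements in Hspa5 and Hsp90b1. The sequences and coordinates are from RefSeq on GRCm38.p6.
Hspa1a, chr17:34972157-34972406, minus strand: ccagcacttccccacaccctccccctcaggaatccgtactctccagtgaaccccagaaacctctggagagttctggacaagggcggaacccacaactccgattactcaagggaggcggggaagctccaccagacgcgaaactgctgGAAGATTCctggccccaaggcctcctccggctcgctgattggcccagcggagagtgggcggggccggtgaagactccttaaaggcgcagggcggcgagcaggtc
Hspb1, chr5:135887669-135887918, plus strand: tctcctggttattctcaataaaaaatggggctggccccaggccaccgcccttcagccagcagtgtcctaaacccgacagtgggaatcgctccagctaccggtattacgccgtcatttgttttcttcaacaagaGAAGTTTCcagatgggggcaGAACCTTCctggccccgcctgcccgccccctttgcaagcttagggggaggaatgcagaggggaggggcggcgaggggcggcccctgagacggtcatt
Hspe1, chr1:55087898-55088147, plus strand: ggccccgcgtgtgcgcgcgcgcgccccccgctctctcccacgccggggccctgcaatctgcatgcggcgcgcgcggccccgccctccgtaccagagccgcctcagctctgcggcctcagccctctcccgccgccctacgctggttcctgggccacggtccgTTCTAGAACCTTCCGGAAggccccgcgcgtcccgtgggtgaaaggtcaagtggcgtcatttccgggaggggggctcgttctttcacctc
Hspa5, chr2:34771840-34772089, plus strand: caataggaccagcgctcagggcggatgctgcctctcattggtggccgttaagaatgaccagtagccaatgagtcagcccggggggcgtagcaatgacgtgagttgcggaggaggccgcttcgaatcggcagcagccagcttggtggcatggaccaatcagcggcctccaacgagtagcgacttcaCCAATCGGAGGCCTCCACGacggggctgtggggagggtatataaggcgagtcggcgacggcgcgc
Hsp90b1, chr10:86705445-86705694, minus strand: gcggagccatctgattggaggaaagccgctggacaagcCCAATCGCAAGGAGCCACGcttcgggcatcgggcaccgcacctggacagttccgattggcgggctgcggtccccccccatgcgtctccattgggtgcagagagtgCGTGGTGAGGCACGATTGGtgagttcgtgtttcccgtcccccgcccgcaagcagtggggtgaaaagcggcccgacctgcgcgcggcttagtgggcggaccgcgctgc

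The Hspe1 window overlaps by 215 bases with that of Hspd1, the neighbouring gene on the other strand, so that their rows of units are not independent. The 8 heat-inducible members include Dnajb1 and Hspb8, in whose windows no pair was found. A match describes the letters of the sequence and not binding by a factor.

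The deposited values are linear MAS5 signals, scaled globally per array by the authors. The level under which a signal counts as background was set at the 95th percentile of 129 probe sets of olfactory, vomeronasal and taste receptor and keratin-associated protein genes, and the higher of both arrays, 49.2, served for each. Where a gene had several probe sets, the one with the highest mean over both arrays gave its value, and the gene was measured where that mean reached the level. Signals are not compared between genes, because probe sets differ in brightness. RNA integrity, read from the 3′ to 5′ ratio of the Actb control probe sets, differed little, with 1.55 for wild-type and 1.38 for mutant RNA. Kif14 had signals of 6.85 and 0.733, both under the level, and does not check the labels. Of 9 measured oligodendrocyte markers all 9 were at least 2-fold lower in the mutant, summing to 34767 for wild-type and 2480 for mutant RNA, while the 10 neuron markers of a cerebrum sample summed to 96347 and 95490. The part of the oligodendrocyte difference in the members' values was not tested. In such tissue, fewer cells of a type and less RNA per cell cannot be told apart.

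Chaperone genes had closely similar signals on both arrays. Of the 71 members 64 were measured, each above the level on both arrays, with a median log2 ratio of mutant over wild-type of -0.05, beside 0.01 over the 13458 measured genes. The signal was lower in the mutant for 39 members and higher for 25, beside 6502 lower and 6956 higher of all measured genes. None of the 64 was at least 2-fold lower, where 1.06% of all measured genes were, and 1 was at least 2-fold higher, Dnajc17, where 0.773% were. At 1.5-fold, 1 member was lower, Hspa12b, beside 3.59% of all genes, and Dnajc17 remained the single higher one, beside 4.36%. These shares are near those of all genes, which leave room for few calls among 64. Within 1.25-fold lay 55 members, or 85.9%, and 76.3% of all measured genes. Without Hspg2 and Hspb11 the median log2 ratio was also -0.05, and 53 of 62 measured members, or 85.5%, lay within 1.25-fold. The share within 1.25-fold moves with brightness. Above a mean signal of 1000, where 35 members and 4615 genes lay, it was 91.4% of members and 90.1% of genes, and under 1000 it was 79.3% of 29 members and 69.1% of 8843 genes.

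**Figure D1:**
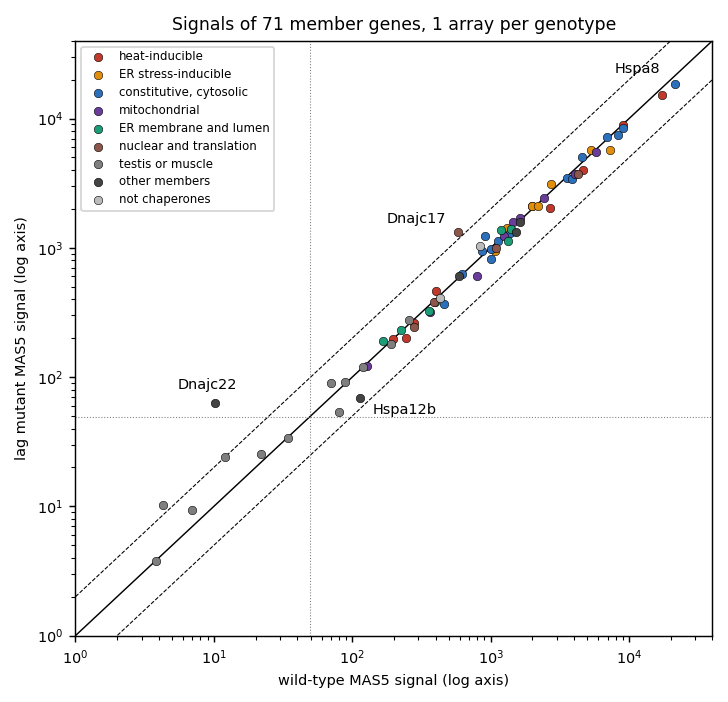
MAS5 signal of the 71 member genes in the wild-type (x axis, log) and the lag mutant (y axis, log), 1 point per gene and 1 array per genotype, coloured by class; the solid line marks equal signals, dashed lines a 2-fold difference and dotted lines the background level of 49.2. The 64 measured members lie along the line of equal signals except Dnajc17, from 576 to 1314, and Hspa12b, from 113 to 69.2; Dnajc22 was under the level in the wild-type.

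The heat-inducible genes of the cytosol lay close to equal signals. All 9 were measured, 7 had a lower and 2 a higher signal in the mutant, and the median log2 ratio was -0.10. None differed by 1.5-fold, beside 3.59% lower and 4.36% higher of all measured genes, so that few calls would fall among 9. Hspa1a and Hspa1b, the strongly stress-induced Hsp70 genes, are nearly identical copies, and their probe sets may read both. The probe set of Hspa1a gave 280 for wild-type and 262 for mutant RNA. The brightest of Hspa1b gave 196 and 195, and its dimmer ones 143 and 127 and 92.2 and 73.0. By their brightest probe sets both genes were thus nearly equal between arrays, while the dimmer ones of Hspa1b were lower in the mutant. Dnajb1, the J-domain partner that is induced with them, went from 1991 to 2092, and from 864 to 1088 by its other probe set. Hspb1, the small heat shock protein Hsp27, went from 404 to 462, the highest ratio of the class at 1.14-fold.

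By their brightest probe sets, the other heat-inducible members had equal or lower signals in the mutant. Hsp90aa1, the stress-inducible Hsp90 of the cytosol, gave 17152 and 15337, with another probe set higher in the mutant, at 7609 and 8848. Hsph1, an Hsp110 that releases nucleotide from Hsp70, gave 4663 and 4001, or 1.17-fold lower, and 2958 and 2942 by its other probe set. Dnaja1, a J-domain protein of the type that binds clients itself, was at 9003 and 8973, with another probe set at 6807 and 8833. Dnajb4, a further J-domain partner of Hsp70, had the lowest ratio of the class. Its signals were 2663 and 2024, or 1.32-fold lower, while its other measured probe sets lay close to 0 on the log2 scale. Hspb8, which works with the cochaperone Bag3 in autophagy of misfolded proteins, went from 243 to 200, and all 3 of its probe sets were lower, by 1.47-fold at most.

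The ER stress-inducible members did not share a direction. All 7 were measured, with 3 lower and 4 higher in the mutant and a median log2 ratio of 0.07. None differed by 1.5-fold, beside 3.59% lower and 4.36% higher of all measured genes. Hspa5, the ER Hsp70 known as BiP, had signals of 7236 and 5742, or 1.26-fold lower, by its probe set with the highest signal, but 3575 and 3873 by the next and 1000 and 1104 by the last, so that no direction can be given for it. Hsp90b1, the ER Hsp90 known as Grp94, went from 5275 to 5670. Both carry the ER stress elements printed above, as does Dnajc3, an ER J-domain protein that also inhibits an eIF2α kinase, at 1310 and 1433. All measured probe sets of Hsp90b1 and Dnajc3 were higher in the mutant, by 1.26-fold at most. Among the other ER members, Dnajb9, a target of the Xbp1 branch of the response, went from 2733 to 3096. Dnajb11, a BiP partner, went from 1081 to 951. Dnajc10, which reduces disulfide bonds for ER-associated degradation, was at 1999 and 2098, and Hspa13, a microsomal Hsp70, at 2205 and 2101.

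Constitutive members of the cytosol had a median log2 ratio of -0.05 over 15 measured genes, with 10 lower and 5 higher. None differed by 1.5-fold, beside 3.59% lower and 4.36% higher of all measured genes. The median of the heat-inducible class was lower than that of the constitutive class by 0.046 on the log2 scale, and that of the ER stress-inducible class higher by 0.12. The classes overlapped over nearly their whole range, from -0.40 to 0.19 for the heat-inducible, -0.33 to 0.18 for the ER stress-inducible and -0.33 to 0.43 for the constitutive members. The 14 measured members that hold a pair of heat shock units had a median of -0.08, and 39 without had -0.05. These 14 include 6 of the heat-inducible class, so that this is not a separate line of evidence.

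Hspa8, the constitutive Hsc70 that also uncoats clathrin vesicles, gave 21366 for wild-type and 18483 for mutant RNA by its brightest probe set. Hspa4, a constitutive Hsp110, gave 3865 and 3416 by its brightest probe set. Its other measured ones gave 1510 and 1738, and 1230 and 1244, so that no direction can be given. The related Hspa4l gave 1386 and 1303. Hspa2, best known from spermatogenesis, had signals of 618 and 626, and Hspa14, a ribosome-associated Hsp70, 870 and 940. Several J-domain proteins of synapse and axon were in this class. Dnajc5, the cysteine string protein of synaptic vesicles, went from 4543 to 5065, and all 5 of its probe sets were higher in the mutant, by 1.28-fold at most. Dnajc6, the neuronal auxilin that uncoats clathrin vesicles with Hspa8, was at 6911 and 7257. The dimmer probe sets of Dnajc6 differed in direction, at 604 and 727, 110 and 75.4, and 78.4 and 59.5. Dnajb2, a neuronal J-domain protein that binds ubiquitinated clients, went from 1007 to 814.

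The largest difference among the constitutive members was that of Dnajc13, a protein of endosomal sorting. It had signals of 914 and 1227, or 1.34-fold higher, with a dimmer probe set at 65.8 and 61.1. Dnajb6, which suppresses aggregation of polyglutamine proteins, was at 8997 and 8448. Its other measured probe sets differed in direction, at 1624.5 and 2242, and 782 and 621. Dnaja2, a client-binding partner of Hspa8, went from 8375 to 7444. Dnaja4, known to respond to sterols, was 1.26-fold lower, from 458 to 365. Dnajb5, Dnajc7 and the ribosome-associated Dnajc2 each lay within 1.04-fold.

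**Figure D2:**
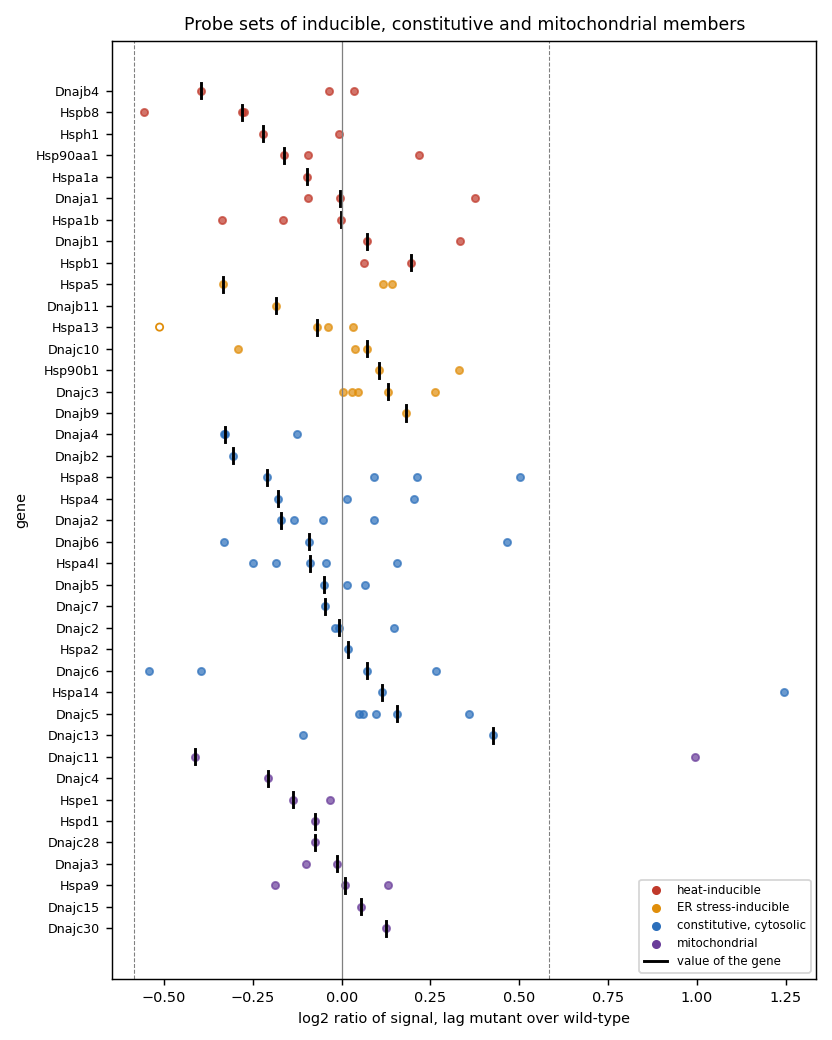
Log2 ratio of MAS5 signal, lag mutant over wild-type (x axis), for the measured probe sets of the heat-inducible, ER stress-inducible, constitutive cytosolic and mitochondrial members (y axis, 1 row per gene); circles stand for single probe sets, filled where both arrays were above background, the black mark is the value of the gene, and dashed lines mark 1.5-fold. No black mark passes 1.5-fold, and single probe sets of Hspa14 and Dnajc11 lie to its right.

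Mitochondrial members differed as little. All 9 were measured, with a median log2 ratio of -0.07. Hspd1 and Hspe1, the chaperonin Hsp60 and its lid Hsp10, are transcribed from a shared promoter region. Hspd1 gave 5805 and 5506, and Hspe1 4092 and 3723. The 2 partner genes thus had nearly equal ratios. Hspa9, the mitochondrial Hsp70 mortalin, was at 2422 and 2440, and Dnaja3, its J-domain partner, at 1248 and 1236. Dnajc15, of the import motor, was at 1637 and 1701. Dnajc28 was at 127 and 121, Dnajc30 at 1457 and 1588 and Dnajc4 at 366 and 317. Dnajc11, of the cristae junction complex, had the lowest ratio of the class with 802 and 602, and its probe sets disagreed. The range of the class was -0.41 to 0.12.

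Most of the remaining measured members were within 1.25-fold. The 7 J-domain proteins of the ER outside the inducible class, such as Dnajb12 and Dnajb14, which help to dispose of misfolded membrane proteins, had log2 ratios from -0.24 to 0.23. Of 5 members with roles in the nucleus or in translation, 4 lay between -0.21 and -0.04: Dnajc8 of the spliceosome, the histone chaperone Dnajc9, Dnajc21 of ribosome assembly and Dnajc24, which takes part in diphthamide synthesis. The other was Dnajc17, a splicing-associated protein, with a signal of 576 for wild-type and 1314 for mutant RNA, 2.28-fold higher and above 99.7% of measured genes. Its other measured probe set was at 65.7 and 68.4, so that the difference rests on a single probe set. Hspg2 had signals of 429 and 408, and Hspb11 of 835 and 1030.

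Hspa12b, an atypical Hsp70 of endothelium, was the member with the lowest ratio, with signals of 113 for wild-type and 69.2 for mutant RNA, or 1.63-fold lower. It has a single probe set, near background. Among 9 markers of endothelium and its basement membrane 4 were lower and 5 higher in the mutant. The lower ones were the endothelial cell genes Pecam1, from 237 to 170, Flt1, from 387 to 281, Cldn5 and Cdh5. The higher ones were the endothelial Tek, at 354 and 375, and the basement membrane genes Lama4, Nid1, Col4a1 and Col4a2. The summed signal over all 9 was 8050 and 9460, with Col4a1 alone at 2131 and 3218. The part of endothelial cells in the value of Hspa12b was not tested. Its relative Hspa12a, which is expressed in neurons, was at 1518 and 1328. The other two measured members outside the classes, Dnajc12 and Dnajc27, lay within 1.04-fold.

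Members typical of testis or muscle were mostly dim. Of 12 such genes 6 were measured. Dnajb8, a testis J-domain protein, gave 80.2 and 53.9, and Dnajb13, of the axoneme of motile cilia and sperm tails, 70.7 and 89.3. Of 8 ciliary markers 6 were measured, 5 of them higher in the mutant, with a summed signal over the 8 of 1084 and 1315. Their part in the values of Dnajb13 and of Hspb11 was not tested. Hspb2, Hspb3 and Hspb6, small heat shock proteins of muscle, and Dnajb3 lay within 1.08-fold. Not measured were Hspa1l, Hspb7, Hspb9, Dnajb7, Dnajc5b and Dnajc5g, under the level on both arrays, and Dnajc22, at 10.2 for wild-type and 62.5 for mutant RNA, with a mean under the level.

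Probe sets of one gene often differed in direction. Of 42 members with several measured probe sets 25, or 59.5%, had probe sets on both sides of 0, and so did 55.1% of the 6297 such genes on the array. The SD of the log2 ratio between probe sets of a gene was 0.284 for members and 0.336 for all genes. It is not a replicate error, but sets a scale for single values. Hspa8 shows the range: its probe sets gave 21366 and 18483, 14655 and 15608, 9290 and 13154, and 131 and 151. The highest signal was thus lower in the mutant and the others were higher, by 1.42-fold at most. Hsp90aa1 likewise had a probe set at 7609 and 8848, against its lower ones. No direction can be given for either gene. Of the 57 member probe sets with a mean signal of at least 1000 none differed by 1.5-fold, with log2 ratios from -0.40 to 0.50. Among the 4615 genes at such a mean signal, 45 were at least 1.5-fold lower and 56 higher, which leaves room for few calls among 57. The share over all such probe sets was not computed.

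Of all 142 measured member probe sets, 3 were at least 1.5-fold lower and 4 higher in the mutant, beside 5.19% lower and 4.76% higher of the 24202 measured probe sets paired with 1 gene. The lower ones were the probe set of Hspa12b and 2 dim ones of Dnajc1, an ER J-domain protein, at 122 and 72.1 and at 88.8 and 34.8. Dnajc1 has 5 measured probe sets, of which 4 were lower in the mutant. The one with the highest signal was at 356 and 324, another was at 150 and 100.4, and the single higher one was at 113 and 135. The higher ones were those of Dnajc17 and of Hspa14, Dnajc11 and Dnajc14. The Hspa14 probe set went from 156 to 369 beside 870 and 940 for the brighter one of the gene.

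Regulators and partners of these chaperones, where measured, also lay near equal signals. Of 74 such genes on the array 72 were measured, with a median log2 ratio of 0.0045, none was 2-fold different in either direction, and 1, Fkbp5, was at least 1.5-fold higher. Over all measured genes, 1.06% were at least 2-fold lower and 0.773% higher. At 1.5-fold these shares were 3.59% and 4.36%, which leave room for few calls among 72. Heat shock factor 1 itself has no value here. From the list of 5 heat shock factor genes, 4 were on the array and 2 were measured. Hsf2, a heat shock factor, was at 356 and 360, and Hsbp1 at 12222 and 12255. Of 8 further genes known as targets of heat shock factor 1, none differed by 1.5-fold: Bag3 was at 219 and 266, Chordc1 at 2107 and 1684, and the small heat shock protein gene Cryab at 1393 and 1600. All 14 genes of the CCT chaperonin and prefoldin, which fold actin and tubulin, lay within 1.25-fold, with Tcp1 at 5644 and 5285. So did 76.3% of all measured genes, and 90.1% of those with a mean signal of at least 1000.

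Hsp90 cochaperones held the exception. Fkbp5, an immunophilin of steroid receptor complexes that glucocorticoids induce, went from 732 to 1217, or 1.66-fold higher. A dimmer probe set of Fkbp5 was at 104 and 96.5. The related Fkbp4 was at 999 and 953, and Stip1, which links Hsp70 to Hsp90, at 1551 and 1412. Ahsa1, which stimulates the ATPase of Hsp90, went from 2986 to 3437 and its relative Ahsa2 from 1243 to 867. Among 19 genes of ER folding and the unfolded protein response none differed by 1.5-fold, beside 3.59% lower and 4.36% higher of all measured genes. Atf4 was at 2653 and 3325, Ddit3, which encodes CHOP, at 433 and 457, Xbp1 at 5545 and 5406, and Pdia6, a disulfide isomerase, at 1716 and 1253. Of 8 mitochondrial partners and proteases, the lowest ratio was that of Clpx, from 875 to 622.

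**Figure D3:**
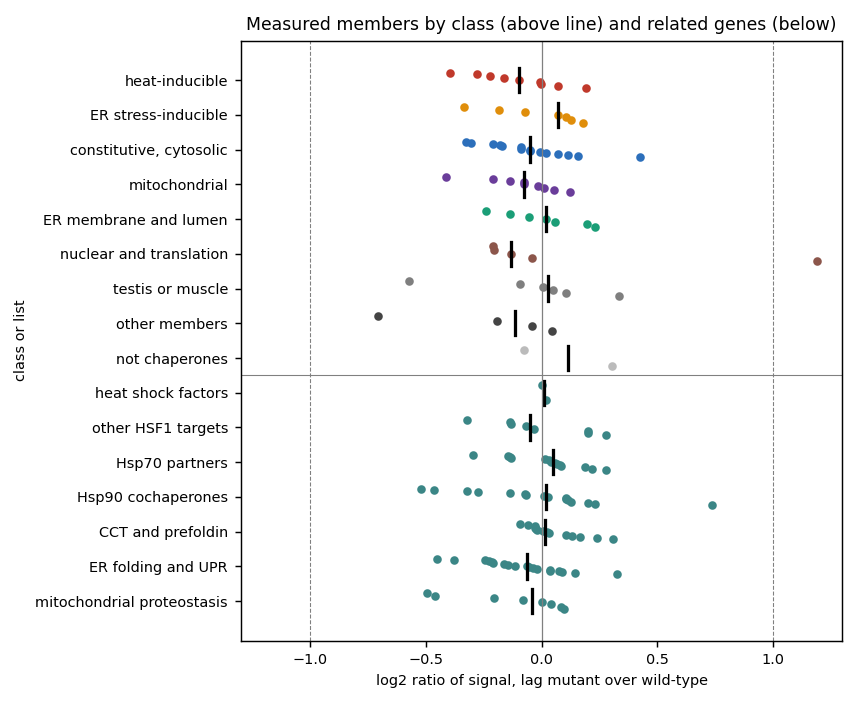
Log2 ratio of MAS5 signal, lag mutant over wild-type (x axis), for measured members by class and, under the horizontal line, for related genes by list (y axis); each point is a gene, the black mark the median, and dashed lines mark 2-fold. Medians of the heat-inducible, ER stress-inducible and constitutive classes are -0.10, 0.07 and -0.05; Dnajc17 passes 2-fold.

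Immediate early genes, which respond to activity and handling within minutes, had a wider spread of ratios than the inducible chaperones. Of 9 measured, 4 were at least 1.5-fold higher and 1 lower, with Fos at 1562 and 3437, Npas4 at 173 and 790 and Nr4a1 at 1564 and 896. Egr1, at 6441 and 6116, and Jun, at 1140 and 1166, were near equal. Fosb, among the higher ones, was near background, at 50.2 and 79.8. The log2 ratios of these 9 genes had an SD of 0.902, beside 0.185 for the 9 heat-inducible members and 0.362 for all measured genes. The list was chosen with earlier results of these data known, and the difference was not tested.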

How the data were processed

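The authors extracted RNA of P14 cerebrum, hybridised it to an Affymetrix mouse genome array and computed MAS5 signals by default with global scaling. The deposited values are linear intensities, and MAS5 is also named in the submitters' processing notes. For the target of that scaling, none of the sources used here gives a value. Of 45101 probe sets, 34958 were paired with 1 gene and 932 with several. Signals under the background level were raised to it before log2 ratios were computed. The genes named by rule were members at least 1.5-fold different, measured members of the inducible, constitutive cytosolic and mitochondrial classes, members whose probe sets opposed each other by 1.5-fold, of which there were 0, and related genes at least 1.5-fold different. Other genes were chosen after their values were seen. The members and lists were chosen with earlier results of these data known. The code that computes folds and counts was tested on simulated data, which bears on the code alone and not on the spread between mice. Alternatives changed the probe set, the scaling, the background level and the filter. Promoters were matched by gene ID for 58 of 71 members. The tools were numpy 2.4.6, scipy 1.17.1, pandas 2.3.3 and matplotlib 3.10.9 under Python 3.11.15. With 2 arrays, their number limits the precision.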

Additional observations from a re-analysis of the deposited data

Results flagged for a closer look

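Probe sets of 3 members that were not used for the value of the gene had a signal above that of the wild-type array by at least 1.5-fold. That of Hspa14 was 2.37-fold higher in the mutant, that of Dnajc11 1.99-fold, from 254.5 to 507, and that of Dnajc14 1.87-fold, from 285 to 533. By the probe sets with the highest signal, Hspa14 was 1.08-fold higher, Dnajc11 1.33-fold lower and Dnajc14 1.17-fold higher.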

How the results depend on the processing

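No paired analysis was possible because 1 wild-type and 1 mutant array make no replicate pairs. With log2 ratios averaged over the probe sets of each gene, 0 members were at least 2-fold higher and 2 at least 1.5-fold higher, in place of 1 each. Without a background level, 4 of 71 were higher at either fold. They were Dnajc17 and also Dnajc22, Dnajc5g and Hspb9. Against the level used otherwise, Dnajc22 was under it in the wild-type, and Dnajc5g and Hspb9 were under it on both arrays. For the counts under these settings, no share over all genes was computed. With the level at the 99th percentile, 0 of 58 were at least 1.5-fold lower, in place of 1. With only probe sets whose target is a RefSeq mRNA, a choice made after seeing the data that leaves 20 members, 0 were 2-fold higher, 0 were 1.5-fold higher and 0 were 1.5-fold lower. Dividing each array by its median moved the median of all members to 0.038 and that of all genes to 0.098. Of 65 medians of a class or of all members under a setting, 64 stayed inside the 95% interval of the main median. For the ER stress-inducible class that interval was its whole range, -0.33 to 0.18. The count of 64 therefore says little about stability. The median of the heat-inducible class stayed between -0.097 and -0.0087, that of the ER stress-inducible class ranged from -0.070 to 0.16 and that of the constitutive class from -0.090 to 0.037, so that both of these changed sign. A value of a single member counted as moved where it shifted by at least 0.284, the SD between probe sets. Of 426 such values 8 moved, all where the choice of probe sets changed. The settings of background level and filter left the ratios of these members as they were, so that many of the 426 could not move. Averaged over probe sets, Hspa8 had a log2 ratio of 0.15, Hspa5 -0.025, Dnajc11 0.29, Dnajc17 0.62 and Hspa14 0.68. With unique probe sets only, Hspa8 had 0.21, Dnajc10 -0.29 and Hspa1b -0.34. The cause was not tested. Dim members such as Hspa12b are limited by their signal over background.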
